A study of Homo sapiens with 30 samples.

Results

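The comparison described here is between RNA recovered with TIA1 granules from cells that carry the Welander distal myopathy form of TIA1 (WDM) and from cells that carry the wild-type form (WT), both without arsenite. Its members are the 3 WDM and 3 WT granule libraries whose titles name tetracycline and no arsenite, 6 of the 30 libraries of the series. Both lines derive from Flp-In T-REx HEK293, a human embryonic kidney line with a single integration site and a tetracycline-regulated promoter. The line FT293-GFP-TIA1aWT carries GFP-tagged wild-type TIA1a, and FT293-GFP-TIA1aWDM carries GFP-tagged TIA1a with the disease mutation. All 6 samples were labelled as treated with "Tetracyclie", and none with arsenite. The remaining libraries used below came from the same lines: 6 granule libraries after 0.5 mM NaAsO2 for 60 min, and 18 cytosol libraries without tetracycline, with it, or with tetracycline and arsenite. Each genotype is represented by 1 line, so the mutation and any other difference between the lines cannot be told apart. The design text describes the purification of granule cores, by pelleting and pull-down through GFP, for arsenite-treated cells only, and the labels do not say what differed for cells without arsenite. The replicates are numbered, but nothing says that they came from separate cultures, so the p-values measure the spread between these samples, which may be technical.

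TIA1 is an RNA-binding protein that recognises U-rich stretches in introns and 3′ untranslated regions, where it acts on splicing, translation and mRNA stability. Its prion-like domain lets it condense, together with G3BP1 and other proteins, into stress granules when translation initiation stalls, as it does under arsenite. Welander distal myopathy is a late-onset muscle disease caused by a missense mutation in that domain of TIA1. RNA that sediments and co-purifies with tagged TIA1 in cells without arsenite therefore describes material collected before acute stress.

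The 6 libraries held 5906167 to 25176605 counts, and 23011 to 28453 genes had at least 1 count. A gene without a count could have been present at up to 0.118 to 0.513 CPM (a gene's count scaled to the effective library size), depending on the library. Floors and intervals here cover counting error only, since these reads carry no molecular identifiers. Replicates correlated at 0.981 to 0.993 on log2 CPM, and every pair differed by more than sampling noise. On the first 2 principal components of the 12 granule libraries, WT and WDM separated on the second, which held 24.0% of the variance. TIA1 itself had 1 count in WT replicate 3 and 0 in the other 5 libraries, so its level could not check the labels. Both lines carry a TIA1a transgene, so these counts may not reflect expression, and how its reads were counted is not given in the sources used here. Its paralog TIAL1 stood at 117, 93.6 and 146 CPM in WT and 127, 96.1 and 104 CPM in WDM. Of the marker lists, the kidney and HEK293 set summed to 343 to 419 CPM in WT and 349 to 381 CPM in WDM. The blood set did not exceed 0.157 CPM, with CD3E at 0, and the liver set did not exceed 0.752 CPM, with TTR at 0. The skeletal muscle set summed to 1.54 to 1.77 CPM in WT and 0.673 to 1.32 CPM in WDM. The fibroblast set summed to 5.74 to 7.70 CPM in WT and 7.70 to 14.6 CPM in WDM, and its called member was COL3A1. The neuronal cytoskeleton set summed to 68.0 to 94.1 CPM in WT and 59.2 to 90.1 CPM in WDM, and its called member was INA.

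Without arsenite, 1019 of 18366 genes tested differed between WDM and WT granule RNA (5.55%) by edgeR's quasi-likelihood test at an adjusted p under 0.05. Of these, 478 were higher in WDM (2.6%) and 541 were lower (2.95%). A change of at least 2-fold, or 1 on the log2 scale, was reached by 269 of the higher genes (1.46%) and 244 of the lower genes (1.33%). Among the 1019 genes, 993 had every library of one line above every library of the other (5.41% of genes tested), while 20.8% of all genes tested were separated in this way, 10.2% with WDM higher and 10.6% with WDM lower. The number called depended on single libraries: it ran from 570 without WDM replicate 3 to 1330 without WDM replicate 1, and it was 589 without WDM replicate 2, 615 without WT replicate 2, 682 without WT replicate 3 and 920 without WT replicate 1. Of the 1019 genes, 398 were called in all 6 fits that left out a library, 211 of them higher and 187 lower. In a bulk library, fewer cells that contain an RNA and less of it per cell cannot be told apart.

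**Figure D1:**
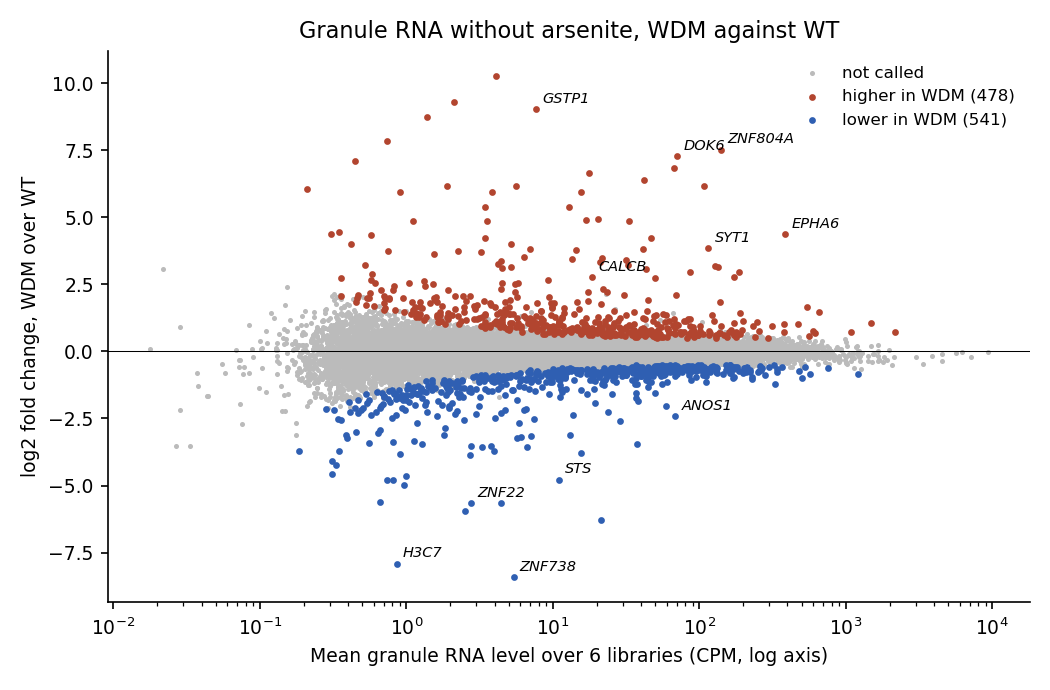
Each point is a gene tested in granule RNA without arsenite; the x axis is its mean level over the 6 libraries (CPM, log axis) and the y axis its log2 fold change, WDM over WT. The 478 genes higher in WDM (red) and the 541 lower in WDM (blue) spread from GSTP1 at 9.04 to ZNF738 at -8.43 among the named genes, and most genes (grey) were not called.

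The 12 genes named as higher in WDM granules, those of largest change by a rule on level and overlap, included GSTP1, ZNF804A and 3 long non-coding RNAs. GSTP1 (ENSG00000084207), the pi-class glutathione S-transferase (chromosome 11, 67583742-67586656, GRCh38), stood at 0, 0 and 0.0393 CPM in the WT libraries and at 8.75, 20.1 and 17.2 CPM in the WDM libraries. It had 1 count in all WT libraries together and 662 counts in the WDM libraries, a ratio of levels of 703 with a 95% exact Poisson interval of 126 to 2.78e+04. ZNF804A, a zinc finger protein gene (chromosome 2, 184598529-184939492), was at 2.40, 1.54 and 1.18 CPM in WT and at 270.3, 251 and 318 CPM in WDM. Its log2 fold change was 7.53 ± 0.249 (SE, n = 3 per group, edgeR adjusted p = 2.9e-18). WDM libraries thus lay far above WT libraries for both genes, while the lack of overlap was required by the naming rule.

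DOK6, an adaptor of receptor tyrosine kinases, was at 1.03, 0.889 and 0.866 CPM in WT and 162, 123 and 138 CPM in WDM (log2 fold change 7.28). KCNT2, a sodium-activated potassium channel subunit, was at 1.54, 0.970 and 1.18 CPM in WT and 122, 125 and 155 CPM in WDM (6.83). KCNJ3, an inwardly rectifying potassium channel subunit, was at 0.171, 0.323 and 0.866 CPM in WT and 24.2, 24.1 and 27.2 CPM in WDM (5.40). In each of these no WT library exceeded 1.54 CPM, and the 3 WDM libraries lay close together. EPHA6, an ephrin receptor, was well above the floor in WT, at 37.8, 36.4 and 32.6 CPM, and reached 846, 639 and 720.1 CPM in WDM, which is 4.37 ± 0.208 on the log2 scale (edgeR adjusted p = 5.85e-15). GPR173, an orphan receptor, rose by 6.18, GALNTL6, a member of the polypeptide GalNAc-transferase family, by 4.91 and PRR16 by 4.85 on the log2 scale. The long non-coding RNAs LINC01036, KC6 and LINC00351 rose by 6.17, 6.40 and 4.95 on that scale. LINC01036 had 2.57, 2.91 and 3.15 CPM in WT and 265, 178 and 198 CPM in WDM. Of the 12 genes, 7 spanned over 200 kb of genome, and all 12 were called in each of the 6 fits that left out a library. Without WT replicate 3 the log2 values were 11.17 for GSTP1, 5.23 for GPR173 and 6.48 for KCNJ3, and without WT replicate 1 that of GPR173 was 6.96.

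RNAs that were nearly lost from WDM granules were led by zinc finger genes and by a block of genes on the short arm of chromosome X. ZNF738 (ENSG00000172687, chromosome 19, 21358930-21388582) was at 11.8, 11.2 and 9.25 CPM in WT and at 0.0962, 0 and 0 CPM in WDM. The WDM libraries held 1 count of it together against 443 in WT, a ratio of 417 with a 95% exact Poisson interval of 74.9 to 1.65e+04. Without WDM replicate 1 its log2 value was -10.72, and without WDM replicate 3 it was -7.84. ZNF22 was at 7.36, 3.72 and 5.15 CPM in WT and 0.0962, 0.0678 and 0.125 CPM in WDM, which is -5.66 ± 0.509 on the log2 scale (edgeR adjusted p = 4.52e-09). Exons of other genes on the opposite strand cover 38% of ZNF22's exons, and exons on its own strand cover 18% of ZNF738's, so their counts carry that uncertainty. ZNF600 fell by 3.87, from a mean of 5.07 to 0.355 CPM. LRRN1, a leucine-rich repeat neuronal protein, and the non-coding RNAs LINC00839 and DIRC3 fell by 3.24, 3.57 and 3.46 on the log2 scale. DIRC3 was at 56.5, 77.9 and 72.8 CPM in WT and 9.14, 4.61 and 5.51 CPM in WDM. The naming rule required that no WDM library reach the lowest WT library, so that separation was fixed beforehand. All 12 genes named as lower were called in each of the 6 fits without a library.

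**Figure D2:**
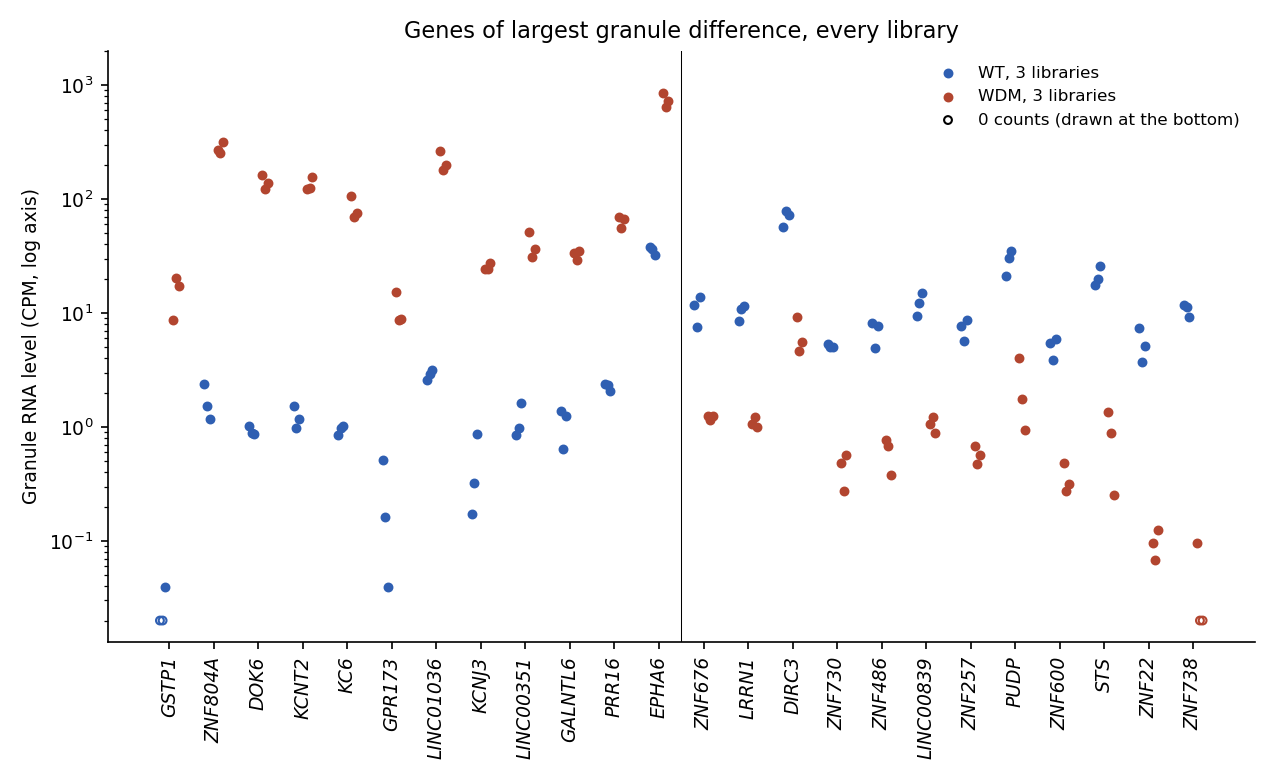
The level of the 12 higher and 12 lower genes of largest change in each granule library (CPM, log axis), WT in blue and WDM in red, with open circles at the bottom for libraries without a count. The 24 genes were picked by a rule that required no overlap between the lines, and GSTP1 and ZNF738 have libraries at 0.

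On chromosome X, 3 neighbouring genes fell together. STS, steroid sulfatase (chromosome X, 7147237-7804358), was at 17.5, 19.9 and 26.0 CPM in WT and 1.35, 0.882 and 0.251 CPM in WDM, which is -4.78 ± 0.332 on the log2 scale (edgeR adjusted p = 1.95e-11). PUDP, a pseudouridine 5′-phosphatase (chromosome X, 6667865-7148158), was at 21.1, 30.5 and 34.9 CPM in WT and 4.04, 1.76 and 0.939 CPM in WDM, a difference of -3.78 that was -4.44 without WDM replicate 1. ANOS1, the extracellular matrix protein anosmin-1 (chromosome X, 8528874-8732137), was at 93.4, 115 and 138 CPM in WT and 23.9, 21.5 and 19.8 CPM in WDM (-2.42). Between 6.5 and 11 Mb of chromosome X, a window chosen after its values were seen, 6 genes were tested. These 3 were called, against 5.55% of all genes. The next genes, TBL1X and MID1, stood at 0.13 and 0.01 on the log2 scale and were not called. The last uncalled gene, a long non-coding RNA without a symbol, was at -0.72 (edgeR adjusted p = 0.083). Its mean was 16.0 CPM in WT and 9.95 CPM in WDM. STS and PUDP lie on opposite strands and overlap at their starts, and whether the counting used strand is not given in the sources used here, so counts there are uncertain.

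Krüppel-type zinc finger genes of the chromosome 19 cluster encode DNA-binding repressors that arose by repeated duplication, and some of them were lower in WDM granules. Over the whole chromosome 16 of 215 ZNF genes tested were lower (7.44%), against 11 of 256 on other chromosomes (4.30%) and 2.95% of all genes. Among the other genes of chromosome 19, 49 of 930 were lower (5.27%). Between 19.5 and 24.5 Mb, a window also chosen after its values were seen, 31 ZNF genes were tested. Of them, 10 were lower in WDM granules, against 2.95% of all genes, none was higher and 21 were not called. The 10 had a median log2 fold change of -3.31 and ran from -8.43 (ZNF738) to -1.13 (ZNF66), while the other 21 had a median of 0.02 and ran from -0.67 to 0.49. Lowered and uncalled genes were interspersed along the cluster. ZNF486 was at 8.21, 4.93 and 7.71 CPM in WT and 0.770, 0.678 and 0.376 CPM in WDM, and ZNF257 was at 7.70, 5.66 and 8.62 CPM against 0.673, 0.475 and 0.564 CPM. ZNF730 was at 5.31, 5.01 and 5.00 CPM against 0.481, 0.271 and 0.564 CPM, and ZNF676 at 11.6, 7.52 and 13.8 CPM against 1.25, 1.15 and 1.25 CPM. By contrast ZNF100, which lies between ZNF738 and ZNF257, had a mean of 62.0 CPM in WT and 62.6 CPM in WDM. All 10 were also called lower in the tetracycline cytosol and in the granules with arsenite, which are separate libraries of the same lines. Because these genes are close paralogs, reads shared between copies make single values uncertain.

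The promoters of 3 of the 5 named genes of this cluster were found among the RefSeq sequences, and they are shown because the genes moved together. Each runs from 250 bases before to 50 bases after the gene's start on GRCh38.p14, on the plus strand, and the RefSeq start of ZNF730 lies inside the span that the authors' table gives for the gene (23075210-23147221). Capitals mark the 2 longest runs of letters that all 3 share, each 13 bases long.
ZNF486 (chr19:20166964-20167263): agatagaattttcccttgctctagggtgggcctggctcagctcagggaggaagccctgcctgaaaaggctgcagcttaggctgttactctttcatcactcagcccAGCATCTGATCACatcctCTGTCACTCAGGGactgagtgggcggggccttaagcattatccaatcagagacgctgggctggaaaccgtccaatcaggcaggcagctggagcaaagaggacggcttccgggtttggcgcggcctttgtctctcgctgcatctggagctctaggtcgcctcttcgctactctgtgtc
ZNF257 (chr19:22052234-22052533): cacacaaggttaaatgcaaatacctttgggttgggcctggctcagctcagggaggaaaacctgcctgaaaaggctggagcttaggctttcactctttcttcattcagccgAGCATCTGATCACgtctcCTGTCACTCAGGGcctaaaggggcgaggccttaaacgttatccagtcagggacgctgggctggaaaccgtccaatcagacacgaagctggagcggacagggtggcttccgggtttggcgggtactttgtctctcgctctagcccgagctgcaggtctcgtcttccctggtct
ZNF730 (chr19:23116775-23117074): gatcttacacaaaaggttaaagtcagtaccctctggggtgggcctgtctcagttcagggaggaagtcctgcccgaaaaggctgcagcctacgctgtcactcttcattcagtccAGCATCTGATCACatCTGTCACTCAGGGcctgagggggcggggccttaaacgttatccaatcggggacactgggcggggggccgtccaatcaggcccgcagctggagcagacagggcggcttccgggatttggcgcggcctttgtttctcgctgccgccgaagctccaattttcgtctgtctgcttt
Both runs were searched on both strands. AGCATCTGATCAC occurs in 9 of 35116 RefSeq promoters (0.0256%), and 8 of the 9 genes lie on chromosome 19. Within the cluster it was present in 4 of the 7 lowered genes with a promoter in the table and in 3 of the 19 genes that were not called. CTGTCACTCAGGG occurs in 26 promoters (0.074%), and 19 of the 26 genes lie on chromosome 19. It was present in 4 of the same 7 lowered genes' promoters and in 10 of the 19 that were not called. The 3 promoters shown are among these 7, and the runs were taken from them, so their matches were fixed beforehand. The counts for lowered and uncalled genes therefore cannot be compared as shares. Neither run is in every lowered gene or absent from the uncalled ones, and a match of letters is a description only.

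Genes lowered in WDM granules were unevenly spread over the genome. Chromosome 20 had 78 lower genes of 457 tested (17.1%) and 3 higher, chromosome 16 had 74 lower of 797 (9.28%), chromosome 8 had 47 lower of 669 (7.03%) and chromosome 19 had 65 lower of 1145 (5.68%), against 2.95% of all genes. Higher genes were most frequent on chromosome 18, with 17 of 278 (6.12%), chromosome 4, with 42 of 723 (5.81%), and chromosome 13, with 21 of 363 (5.79%), against 2.6% of all genes. Within chromosomes the lowered genes were gathered in segments, taken as adjoining windows of 10 Mb with at least 20 genes tested and at least 15% of them lower. These segments were chosen by the same values they show, so their counts are a description. The rule was applied to lower genes only, and higher genes were also concentrated in some windows. Among these were chromosome 18 at 60 to 70 Mb with 8 of 21 higher (38.1%) and chromosome 1 at 190 to 200 Mb with 8 of 22 (36.4%). Another was chromosome 4 at 130 to 140 Mb with 8 of 24 (33.3%).

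On chromosome 16 between 10 and 40 Mb, 64 of 239 genes were lower and none was higher, with a median log2 fold change of -0.51. The same genes had a median of -0.47 in the tetracycline cytosol, -0.49 in the untreated cytosol and -0.34 in the granules with arsenite, all from other libraries. On chromosome 20 between 20 and 70 Mb, 74 of 340 genes were lower and 1 was higher, with a median of -0.45 in these granules, -0.40 in the tetracycline cytosol, -0.20 in the untreated cytosol and -0.33 in the granules with arsenite. The end of chromosome 3 between 190 and 200 Mb had 16 lower genes of 62 and a median of -0.50, and its medians in the same 3 other sets were -0.58, -0.53 and -0.57. Chromosome 8 had 14 lower genes of 39 between 0 and 10 Mb (median -0.68) and 14 of 81 between 20 and 30 Mb (median -0.17). The window between them had 8 lower genes of 55 (14.5%, median -0.52). It fell just under the cut of 15% and is counted below with the rest of the genome. On chromosome 19 between 0 and 10 Mb, 38 of 239 genes were lower, with a median of -0.40 here, -0.22 and -0.20 in the tetracycline and untreated cytosol and 0.02 in the granules with arsenite. This last segment was thus the one whose median was not below 0 in the other granule set. All segments together, with the zinc finger cluster's window between 20 and 30 Mb of chromosome 19, held 230 lower and 5 higher genes of 1051 tested, and the rest of the genome held 310 lower and 473 higher genes of 17274. Copy number was not measured, and its part in these values was not tested.

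**Figure D3:**
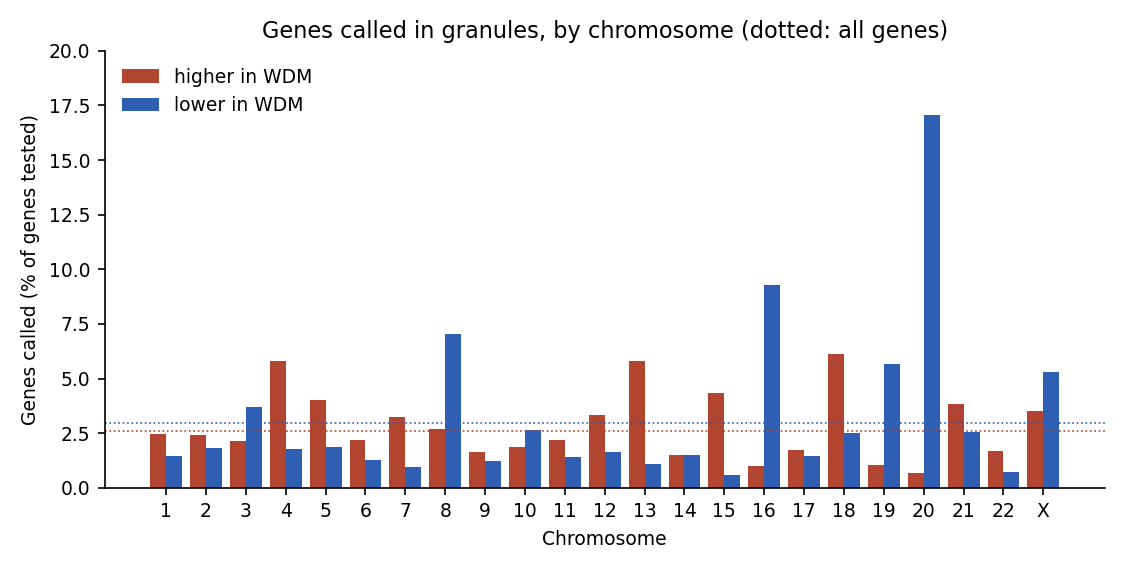
The share of tested genes called higher (red) or lower (blue) in WDM granules on each chromosome, in percent, with dotted lines at the 2.6% and 2.95% of all genes. The lower genes stand out on chromosome 20 at 17.1% and chromosome 16 at 9.28%.

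Several called genes of the lists described next lie in those segments: TNRC6A, SMG1, PLK1 and ABCC1 on chromosome 16, ID1, BMP7 and LAMA5 on chromosome 20, and GADD45B on chromosome 19. Together the 24 lists held 549 genes tested, of which 41 were called (7.47%, against 5.55% of all genes), 21 higher and 20 lower.

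RNAs of TIA1's own family and of RNA granule components did not stand out from all genes tested, of which 5.55% were called. In the list of TIA1 and ELAVL family RNA-binding proteins, 0 of 11 were called by edgeR, as under each alternative run, DESeq2 included, and the median log2 fold change was -0.07. Of the 33 stress granule protein genes tested 1 was called, as lower (3.03%), and the median was -0.02. G3BP1 and G3BP2, the scaffold proteins of stress granules, stood at 0.20 and 0.20, CAPRIN1 at 0.03 and ATXN2 at -0.00 on the log2 scale, none of them called. In the list of processing body and mRNA decay genes, 2 of 36 were called (5.56%). TNRC6A, the GW182 protein that Argonaute recruits for silencing, fell by 0.73, from 313.5, 309 and 336 CPM to 202, 183 and 191 CPM. SMG1, the kinase of nonsense-mediated decay, fell by 0.62 (adjusted p = 0.0416), was called in 1 of the 6 fits without a library, and shares sequence with pseudogene copies on the same chromosome.

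Of 28 translation initiation factors 2 were higher (7.14%): EIF2S3, the gamma subunit of eIF2, rose by 0.94 (adjusted p = 0.00144) from 249, 209.7 and 190.2 CPM to 313, 464 and 464 CPM. EIF1AX, the start-codon scanning factor eIF1A, rose by 0.67, and its call was lost without WT replicate 2 or 3 or WDM replicate 2 or 3. Of 19 heat-shock chaperones 1 was called (5.26%). HSPB8, the small heat-shock protein of chaperone-assisted autophagy, which also stood in the list of myopathy and protein quality control genes (1 of 13 called, 7.69%), fell by 1.98 (adjusted p = 0.000961). It was at 3.94, 2.42 and 2.16 CPM in WT and 0.289, 0.882 and 0.752 CPM in WDM, and it was lower in the cytosol too, at -2.05. Among immediate-early and stress response genes 5 of 29 were called (17.2%), 2 higher and 3 lower, with a median of -0.13.

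SLC7A11, the cystine transporter, was at 169, 104 and 103 CPM in WT and 254, 273 and 298 CPM in WDM, a rise of 1.14 (adjusted p = 0.000116). DDIT4, an inhibitor of mTORC1 signalling, rose by 0.99 (adjusted p = 0.00188). EGR2, an immediate-early transcription factor, fell by 3.37, from 2.05, 1.70 and 0.748 CPM to 0.0962, 0.204 and 0.0626 CPM, and by 4.02 without WDM replicate 2. JUNB, a subunit of the AP-1 factor, fell by 1.04, with the call lost without WT replicate 1, and GADD45B fell by 0.88. The other 24 members were not called, among them FOS at -0.31, JUN at -0.21 and EGR1 at -0.53 on the log2 scale.

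The lists with the largest share of called genes were extracellular matrix and glutathione metabolism. Of 27 matrix and collagen genes 8 were called (29.6%, against 5.55% of all genes), 4 higher and 4 lower, and the median was 0.07. COL2A1, the main collagen of cartilage, rose by 1.86 ± 0.235 (SE, edgeR adjusted p = 2.86e-06). Its levels were 68.5, 65.5 and 47.0 CPM in WT and 127, 279 and 247 CPM in WDM, so WDM replicate 1 lay between WT and the other WDM libraries. COL3A1 rose by 1.92 and COL5A2 by 1.27, both fibrillar collagens, and FBLN1 by 0.72. COL12A1, a fibril-associated collagen, fell by 1.39, from 27.6, 31.5 and 23.9 CPM to 10.7, 10.9 and 10.1 CPM, FBN1, the microfibril protein fibrillin-1, by 1.00, LAMA5 by 0.85 and COL4A5 by 0.67. In glutathione and detoxification 4 of 18 were called (22.2%). Beside GSTP1, the microsomal enzyme MGST1 rose by 1.14, from 43.0, 47.8 and 60.3 CPM to 136, 93.3 and 105 CPM, and GPX8 by 0.84. ABCC1, a drug and glutathione-conjugate exporter, fell by 0.67. Without WT replicate 2 or WDM replicate 3 ABCC1 lost its call, and GPX8 lost it without WT replicate 2 or 3 or WDM replicate 2 or 3.

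Among HLA and interferon-linked genes 4 of 23 were called (17.4%). IFI16, a nuclear DNA sensor, had 3 counts in all WT libraries and stood at 1.15, 2.37 and 2.88 CPM in WDM, a ratio of 32.9 with a 95% exact Poisson interval of 11.3 to 159.6. BST2, the virus-tethering protein tetherin, rose by 2.44, from 0.171, 0.404 and 0.197 CPM to 0.962, 1.76 and 1.44 CPM, and lost its call without WT replicate 3. OAS3, a sensor of double-stranded RNA, fell by 1.07. IFIT1 rose by 0.87 (adjusted p = 0.0487) and kept its call in 1 of the 6 fits without a library. Of 17 BMP and Noggin genes 2 were lower (11.8%): ID1, a BMP target gene, fell by 1.42, from 13.2, 8.33 and 8.89 CPM to 3.46, 4.27 and 3.32 CPM. BMP7, a BMP ligand, fell by 0.51 and was called in 1 of the 6 fits without a library. Of 29 Wnt and Notch genes 1 was higher (3.45%), the receptor FZD3, by 0.79, a call lost without WT replicate 2 or 3.

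Neuronal and axon guidance genes had 3 of 27 called (11.1%). SYT1, the calcium sensor of synaptic vesicle release, was at 13.3, 15.8 and 15.5 CPM in WT and 232, 193 and 221 CPM in WDM, a rise of 3.84 ± 0.209 (SE, edgeR adjusted p = 8.38e-14). INA, the neurofilament protein internexin, fell by 0.91, and ANOS1 is given above. In the cell cycle list 3 of 31 were called (9.68%). CDK6, a kinase of G1 entry, rose by 1.02, from 341, 302 and 296 CPM to 593, 642 and 666 CPM. PLK1, a mitotic kinase, fell by 0.94. MKI67, the proliferation marker Ki-67, fell by 0.85 from 1679, 1581 and 1390.3 CPM to 696, 899 and 984 CPM. In the cytosol its difference was 0.21 and not called, but the test of granule against cytosol difference, given below, did not call MKI67 either. Of 17 sterol and lipid synthesis genes 1 was higher (5.88%), INSIG1, the sterol-regulated retention protein, by 0.53 (adjusted p = 0.0414), a call kept in 1 of the 6 fits without a library.

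**Figure D4:**
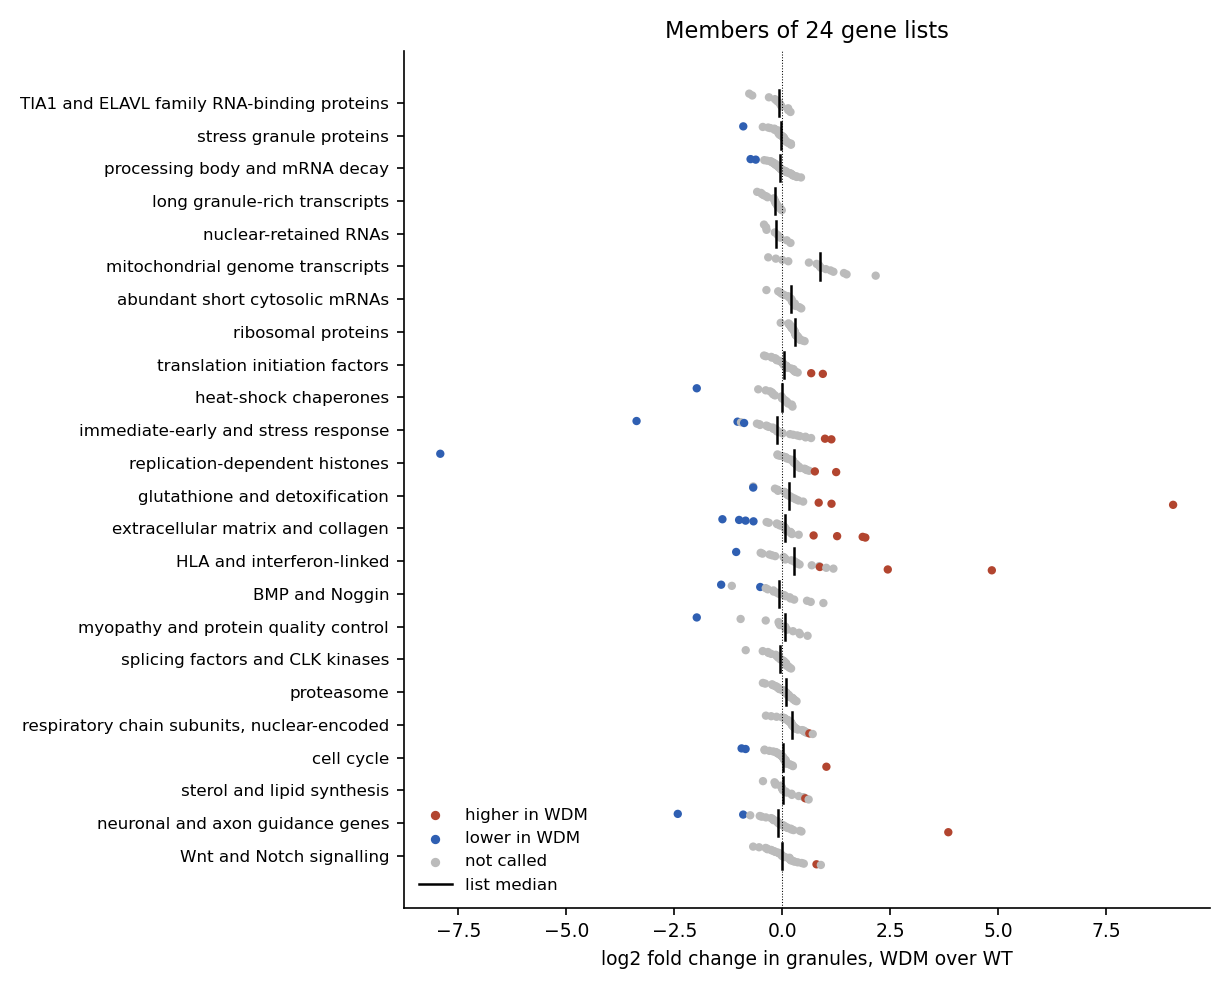
The log2 fold change in granule RNA, WDM over WT, of each tested member of 24 lists (points; red higher, blue lower, grey not called) with the list's median (black bar). Members called in both directions are seen in extracellular matrix, where 4 rose and 4 fell, and mitochondrial genome transcripts have a median of 0.87 with no member called.

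Abundant short mRNAs showed how far WDM replicate 1 differed from the other WDM libraries. Ribosomal protein mRNAs summed to 7327, 5817 and 6076 CPM in WT and to 5507, 8940.0 and 9085 CPM in WDM. None of the 31 was called, although 30 had a positive log2 fold change and the median was 0.29. Without WDM replicate 1, 11 of the 31 were called higher and the median was 0.50, against 6.97% of all genes called in that fit. Replication-dependent histones, whose mRNAs lack a poly(A) tail, summed to 1356, 1131 and 965 CPM in WT and to 909.6, 1769.9 and 1681 CPM in WDM. Of 28 histones 2 were higher and 1 lower (10.7%), and without WDM replicate 1 it was 11 higher and 1 lower. The lower gene was H3C7, at 2.22, 1.86 and 1.06 CPM in WT and 0 counts in WDM, so at least 19.8-fold lower against a floor of 3 counts over the group. H1-3, a linker histone, rose by 1.25, from 13.7, 15.0 and 14.1 CPM to 20.3, 42.3 and 38.6 CPM, and H3C10 by 0.75, the latter kept in 1 of the 6 fits without a library. Histone genes of 1 class are near-identical, so reads may have been split between copies. Of 34 nuclear-encoded respiratory chain subunits 1 was higher (2.94%), COX5A, by 0.63, whose call was lost without WT replicate 2 or 3 or WDM replicate 2 or 3. The count for that list was 9 without WDM replicate 1 and 0 without WT replicate 2, WDM replicate 2 or WDM replicate 3.

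Mitochondrial genome transcripts had a median log2 fold change of 0.87, but 0 of 15 were called in edgeR, as in each alternative run, DESeq2 included. They summed to 4298, 2013 and 2478 CPM in WT and 1127, 3442 and 4221 CPM in WDM. The highest sum was thus in WT and the lowest in WDM, and the sums showed no clear difference between the lines. By log2 fold change 12 members were positive and 3 negative, and the most abundant, MT-CO1 and MT-CO3, stood at -0.33 and 0.14. Long granule-rich transcripts such as MACF1 and DST, which encode giant cytoskeletal linkers, summed to 39037, 57063 and 33424 CPM in WT and 25811, 47727 and 42097 CPM in WDM. Their median was -0.17 and all 18 had a value below 0, with 0 called here and up to 2 where a library was left out, and the median was 0.03 without WT replicate 2. The signs of MACF1 and DST turned under a length offset and without WT replicate 2 or WDM replicate 1. No member was called among 8 nuclear-retained RNAs, which include MALAT1 and NEAT1, 21 splicing factors and CLK kinases, 27 proteasome subunits or 16 abundant short cytosolic mRNAs, whose medians were -0.14, -0.05, 0.08 and 0.21. Without WDM replicate 1, 2 of the 16 short mRNAs and 1 of the 27 proteasome subunits were called higher.

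To ask whether the difference was particular to granules, the same lines were compared in the cytosol with tetracycline, in other libraries. There, 2108 of 16670 genes were called (12.6%), 967 higher (5.8%) and 1141 lower (6.84%). Of the 478 genes higher in WDM granules, 448 were tested in the cytosol, 439 had the same sign and 329 were called higher there too. Of the 541 lower genes, 477 were tested, 467 had the same sign and 281 were called lower. None was called in the opposite direction, and 62.0% of all genes tested in both had the same sign. Across 16159 genes the granule and cytosol differences had a Spearman's rho of 0.44 and a Pearson's r of 0.75, values over genes that share the pair of lines and are not independent replicates. All 24 genes of largest change were called the same way in the tetracycline cytosol, the untreated cytosol and the granules with arsenite. GSTP1 was at 11.49 on the log2 scale in the tetracycline cytosol, ZNF804A at 7.45, STS at -4.37 and ZNF738 at -9.81.

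**Figure D5:**
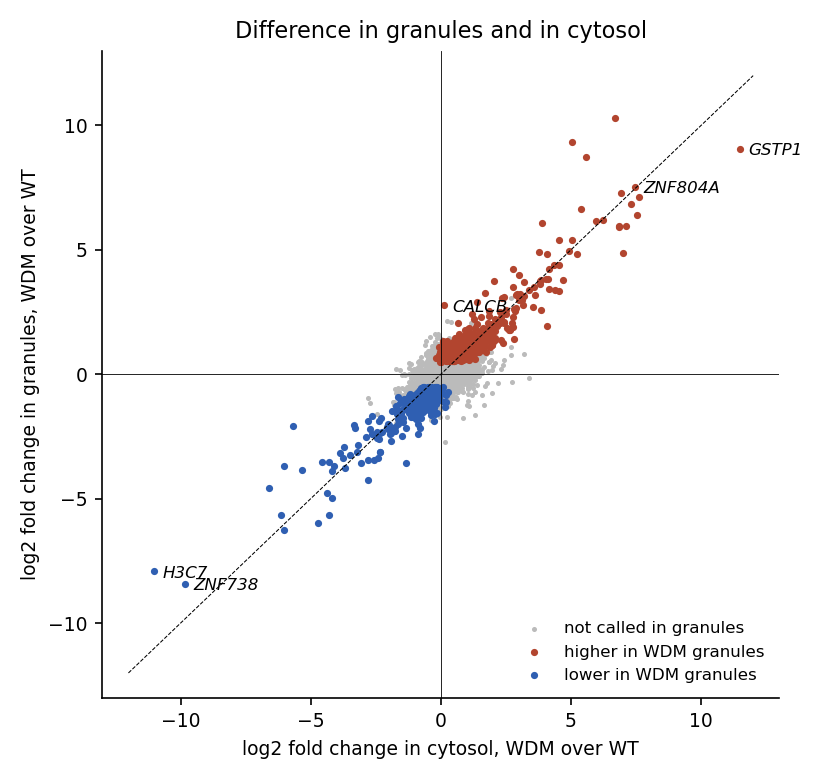
Each point is a gene tested in both fractions, with its log2 fold change (WDM over WT, tetracycline without arsenite) in cytosol on the x axis and in granules on the y axis; the dashed line marks equal differences. Most called genes lie near the line, and CALCB lies away from it, at 2.77 in granules and 0.13 in cytosol.

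The test of the difference itself, the line-by-fraction interaction over the 12 tetracycline libraries without arsenite, called 1 gene of 16897 (0.00592%) by edgeR, against 726 genes (4.3%) at an unadjusted p under 0.05. That gene was CALCB (ENSG00000175868), which encodes beta calcitonin gene-related peptide (chromosome 11, 14904997-15082342). In granules it was at 3.94, 4.93 and 5.08 CPM in WT and 39.0, 28.0 and 30.6 CPM in WDM, which is 2.77 ± 0.217 on the log2 scale (SE, adjusted p = 2.54e-10). In the cytosol it was at 8.94, 10.3 and 13.0 CPM in WT and 10.6, 12.0 and 12.4 CPM in WDM, a change of 0.13 (adjusted p = 0.62), with overlapping libraries. Its interaction was 2.65 ± 0.262 (adjusted p = 0.00013). In the granules with arsenite, whose libraries are in none of the groups compared here, CALCB was again higher. It was at 28.5, 18.9 and 21.3 CPM in WDM against 5.97, 6.14 and 4.44 CPM in WT.

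The next genes by p did not pass in the interaction. On the granule side were TMEM106B, a lysosomal membrane protein, at 39.7, 27.8 and 23.6 CPM in WT and 52.5, 69.4 and 75.7 CPM in WDM granules, with an interaction of 1.13, and GPR180, TMEM41B and OOEP at 0.80, 0.83 and 1.47. On the cytosol side was COL5A2, which rose by 1.27 in granules and by 2.41 in the cytosol, with an interaction of -1.12, followed by SSPN, LINC02145, MTUS2 and WDR90 at -1.41, -2.13, -0.99 and -0.51. Their adjusted p was 0.89 in each case.

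Granule libraries with arsenite gave 1460 of 18366 genes called between the lines (7.95%), 755 higher (4.11%) and 705 lower (3.84%). Of the genes called without arsenite, 441 of the 478 higher and 500 of the 541 lower had the same sign there, and 269 and 269 were called in the same direction. None was called in the opposite direction, and 55.8% of all genes had the same sign. The line-by-arsenite interaction called 0 of 18366 genes (0%) by edgeR and 0 by DESeq2, with 2329 (12.7%) at an unadjusted p under 0.05. It was 5 genes without WT replicate 3 and 44 without the filter on low counts.

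The line difference was also set beside how strongly an RNA is enriched in granules of arsenite-treated cells. That enrichment was taken from the 12 libraries of the treatment. None of them is in the groups compared, but they share the fits of the granule and cytosol differences, with their filter and spread. In 5 bins of about 3526 genes, from the least to the most enriched, the median granule difference was 0.11, 0.03, -0.00, -0.04 and -0.10, and the median cytosol difference was -0.13, -0.05, 0.02, 0.09 and 0.21. By these medians WDM libraries were lower for the most enriched RNAs in granules and higher for them in cytosol. In the most enriched bin 132 genes were higher (3.74%) and 194 lower (5.5%) in WDM granules, against 2.6% and 2.95% of all genes. In the least enriched bin it was 87 (2.47%) and 35 (0.99%). The most enriched bin thus had the largest share called in both directions. The lower genes had a median enrichment of 0.74 and the higher genes of 0.34, against 0.11 for all genes. The granule median of the top bin was -0.03 without WT replicate 2 and -0.20 without WDM replicate 1, so its size rests on those libraries. Across genes, Spearman's rho with the enrichment was -0.20 for the granule difference (17631 genes) and 0.35 for the cytosol difference (16111 genes).

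Called genes were longer in the genome than genes at large: the median span was 61.9 kb for higher and 64.1 kb for lower genes, against 33.1 kb for all genes tested. Spans over 200 kb made up 24.3% of the higher and 22.4% of the lower genes, against 9.64% of all. Long non-coding RNAs were 25.3% of the higher and 15.3% of the lower genes, against 18.7% of all. Base composition differed between the directions, since the median GC content of the longest transcript was 42.8% for higher, 49.7% for lower and 47.6% for all genes. The U content of the 3′ untranslated region, the kind of sequence that TIA1 binds, had a median of 32.2% for higher and 28.1% for lower genes, against 29.9% for all. Across genes the rho of the difference was 0.18 with that U content and -0.18 with GC content, and -0.02 with transcript length. U and GC content are opposite sides of one composition, and these values describe transcripts of a pair of lines, with no test attached. Of the 541 lower genes, 230 lie in the lowered segments given above, which were not set apart for these values.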

How the data were processed

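RNA was measured in 30 libraries of stranded total RNA after rRNA depletion, per the labels' protocols. The authors deposited raw counts per gene in 1 table, without pooling. Trimmomatic, STAR, Picard and featureCounts on GRCh38 are named in the submitters' processing notes, and their settings, including strand and overlaps, are not given in the sources used here. The table lists 60664 genes, 40609 with a symbol. Of the identifiers, 60463 were found in GENCODE v44, 56693 with identical coordinates. A gene's counts can therefore include reads of overlapping genes.

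From these counts, edgeR 4.0.16 (R 4.3.3) was used: filterByExpr (minimum count 10, minimum total 15), TMM factors, and a robust quasi-likelihood fit of group means. Benjamini-Hochberg adjustment ran over every gene in the fit, and an adjusted p under 0.05 was called. The comparison was fitted on all 12 granule libraries, the cytosol on its 18, and the line-by-fraction interaction on the 12 tetracycline libraries without arsenite. Standard errors are the log2 fold change divided by the square root of F. CPM use TMM-adjusted library sizes, and the smallest library (5906167 counts) limits precision most. Groups with 1 to 3 counts are given as count ratios with exact Poisson 95% intervals, and groups with none against 3 counts over the group. Scripts were tested on simulated data. Summaries used Python 3.11.15 and pandas 2.3.3, and figures matplotlib 3.10.9. Promoters come from RefSeq (GRCh38.p14).

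Genes were named by rule: TIA1 and TIAL1, then the 12 higher and 12 lower called genes of largest change with a symbol, at least 5 CPM and no overlap between lines. To these were added 5 genes a direction of smallest p in the interaction, and up to 4 called members of each list, or the 2 most abundant where none was called. Others (ZNF66, ZNF100, TBL1X, MID1, FOS, JUN, EGR1, G3BP1, G3BP2, CAPRIN1, ATXN2, FBN1, FBLN1, LAMA5, COL4A5 and GADD45B among them) and the genome segments were chosen after their values were seen. The members and lists were chosen with earlier results of these data known. Alternatives were RLE factors, library size, no filter, a replicate block, DESeq2 1.42.0, a fit of only the 6 libraries, length offsets and each library left out. No columns of other samples were used. Some results are not reported here.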

Additional observations from a re-analysis of the deposited data

Results flagged for a closer look

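CALCB stood out because its line difference in granules differed from that in cytosol by the test of the difference: 2.65 on the log2 scale (edgeR adjusted p = 0.00013), the WDM granule libraries being above WT in 3 of 3 libraries. It was the 1 gene called in that interaction, also in each fit that left out a library.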

How the results depend on the processing

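The number of genes called between WDM and WT granules without arsenite was 1019, and 859 to 1145 under the alternative settings other than leaving out a library (1008 with RLE factors, 897 with library size, 1104 without the filter, 1145 with DESeq2, 859 with only the 6 libraries, 1036 with a length offset). Leaving out a library gave 570 to 1330. Deviations of same-numbered WT and WDM libraries from their group means had correlations of -0.22, -0.10 and -0.01. Those of unlike-numbered libraries ran from -0.16 to 0.18. Such values, from 3 libraries per group, cannot decide whether the numbers pair the samples. With the replicate block 917 genes were called, and with the block and a length offset 927. The cytosol count was 2108, 852 with only the 6 libraries and 2852 with the replicate block. Without a library it was 1209 to 4573 (the extremes without WDM replicate 3 and WT replicate 1). The granule count with arsenite was 1460 and 569 to 1719 without a library. With library size the calls split into 1165 higher and 917 lower in cytosol, against 967 and 1141, and into 896 and 461 in granules with arsenite, against 755 and 705. The line-by-fraction interaction called 1 gene in each fit without a library, and 2 without the filter. The line-by-arsenite interaction called 44 without the filter and 0 to 5 without a library (1 without WT replicate 1, 5 without WT replicate 3, and 2 without arsenite WDM replicate 1). The causes of these changes were not tested.

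Signs turned for uncalled genes, and their ranges over the fits without a library crossed 0: MACF1 -0.29 to 0.38, DST -0.19 to 0.26, MALAT1 -0.018 to 0.19, MT-CO1 -0.59 to 0.062 and MT-CO3 -0.14 to 0.64. The same held for SF3B1 at -0.20 to 0.17, SRPK2 at -0.11 to 0.18, PSMD2 at -0.22 to 0.11 and TIAL1 at -0.26 to 0.040, and for the rho with transcript length, at -0.077 to 0.0032. MACF1 was at 0.037 with the length offset and 0.015 with the offset and block. DST was at 0.0018 with RLE factors and 0.0018 in DESeq2, 0.054 with the offset and 0.017 with the offset and block. Signs turned most often without WT replicate 2 or WDM replicate 1. The smallest library, with 5906167 counts, limits what can be seen of genes under 0.513 CPM. In an alternative chosen after seeing the data, the members of lists were counted in each fit. Without a library the count ran from 2 to 7 for HLA and interferon-linked genes, 2 to 6 for glutathione, 3 to 6 for immediate-early genes and 1 to 3 for initiation factors, each highest without WDM replicate 1.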
